A study of Homo sapiens with 12 samples.

Results

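The 10 genes described here encode the machinery that brings a cell from G1 into S phase: the D cyclins CCND1, CCND2 and CCND3, their kinases CDK4 and CDK6, the INK4 inhibitors CDKN2A, CDKN2B, CDKN2C and CDKN2D, and the retinoblastoma gene RB1. They were taken by gene symbol, and all 10 were among the 26499 genes in the count files. A375 and SKMel28 are established human melanoma cell lines, and each was present as vemurafenib-resistant cells kept in 1 µmol/L vemurafenib and as sensitive cells for which no drug is named. Every group was grown in DMEM with 10% FBS and gave 3 libraries of poly(A) RNA, 12 in all. The series asks about IGF1 signalling in melanoma cells that resist BRAF and MEK inhibitors, and vemurafenib inhibits the mutant BRAF kinase. Resistance and the presence of the drug therefore cannot be told apart in a comparison of resistant with sensitive cells. Nothing in the labels tells if libraries of 1 group are from different cultures, so the spread and the p-values cover the difference between these libraries, which may be technical. They name no clone or pool for the resistant cells.

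D-type cyclins bind CDK4 and CDK6, and the complexes phosphorylate the RB1 protein. Unphosphorylated RB1 holds E2F transcription factors, and its phosphorylation releases them to switch on genes of DNA replication. INK4 proteins bind CDK4 and CDK6 directly and keep D cyclins from them. Growth factor signalling through BRAF, MEK and ERK raises cyclin D1 transcription, and loss of CDKN2A is a common event in melanoma.

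Reads assigned to genes ran from 28496518 to 37721363 per library, so that 1 CPM (a read count scaled to a common library size, here adjusted by TMM) stood for at least 29 reads. The share of counted reads not assigned to a gene was 15.1% to 15.6% in resistant SKMel28 and 17.1% to 19.5% in the other libraries. Its part in the results was not tested. All 7 melanocyte lineage markers (MITF, SOX10, PMEL, MLANA, TYR, DCT and S100B) were at 1 CPM or more in both SKMel28 groups, summing to 7050 to 7491 CPM in sensitive and 8883 to 9037 CPM in resistant cells. In A375, 3 of 7 reached that level in sensitive cells (sum 373 to 383 CPM, with TYR and DCT at 0 reads) and 1 of 7 in resistant cells (sum 30.7 to 33.4 CPM, with TYR at 0). Of 5 keratinocyte, 6 fibroblast, 5 endothelial and 5 leukocyte markers, at most 2, 3, 2 and 1 reached 1 CPM in any group. Keratinocyte markers summed to 120 to 124 CPM in sensitive and 83.3 to 93.7 CPM in resistant A375, and to 66.4 to 70.4 and 28.5 to 34.1 CPM in SKMel28, with KRT1 at 0 throughout. In resistant A375 the keratinocyte sum was above the melanocyte lineage sum, with KRT10 alone at a mean of 88.7 CPM. Fibroblast markers summed to 16.2 to 26.8 CPM, endothelial ones to 1.86 to 6.70 CPM and leukocyte ones to 0.126 to 9.68 CPM over all libraries. The part of these marker levels in the results was not tested. In bulk RNA, fewer cells of a type and less RNA per cell cannot be told apart.

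In resistant SKMel28, CCND1 and the INK4 genes CDKN2A, CDKN2B and CDKN2D fell, with folds of 0.305, 0.282, 0.220 and 0.474, while RB1 rose (fold 1.28). In resistant A375, CCND1 rose slightly (fold 1.14), CDK6, CDKN2C and RB1 fell (folds of 0.705, 0.602 and 0.661), and the low CDKN2A level rose (0.59 on the log2 scale). CDK6, CDKN2D and CDK4 were called lower in both lines. The A375 falls of CDKN2D and CDK4 were small (-0.23 and -0.10 on the log2 scale) and were not called in every other setting. By edgeR's quasi-likelihood test, with Benjamini-Hochberg adjustment over all 15506 genes tested, 8 of the 9 members with an estimate were called in A375 at an adjusted p below 0.05, against 51.3% of all genes. Of these, 3 rose and 5 fell (25.0% and 26.3% of all genes), and for 8 of the 10 genes the libraries of the 2 groups did not overlap (57.9% of all genes). In SKMel28 all 10 were called, 3 higher and 7 lower, against 70.0% of all genes (34.2% and 35.8% by direction), and none of the 10 had overlapping groups (no overlap in 71.1% of all genes). The change in A375 minus the change in SKMel28 was called for 7 of 9 members, 5 of them above zero and 2 below, against 63.8% of all genes (31.4% and 32.4%). CCND2 passed the filter on low counts through the resistant groups, so it was not free to differ or not between resistant and sensitive cells. CDKN2B passed it through SKMel28, with 180 or more reads in every library of both groups there. It was therefore not free to differ or not between the lines, while its change within SKMel28 was not fixed by the filter. Over the other 8 members, 7 were called in A375 (2 higher, 5 lower), 8 in SKMel28 (2 higher, 6 lower) and 7 for the difference between the changes.

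**Figure D1:**
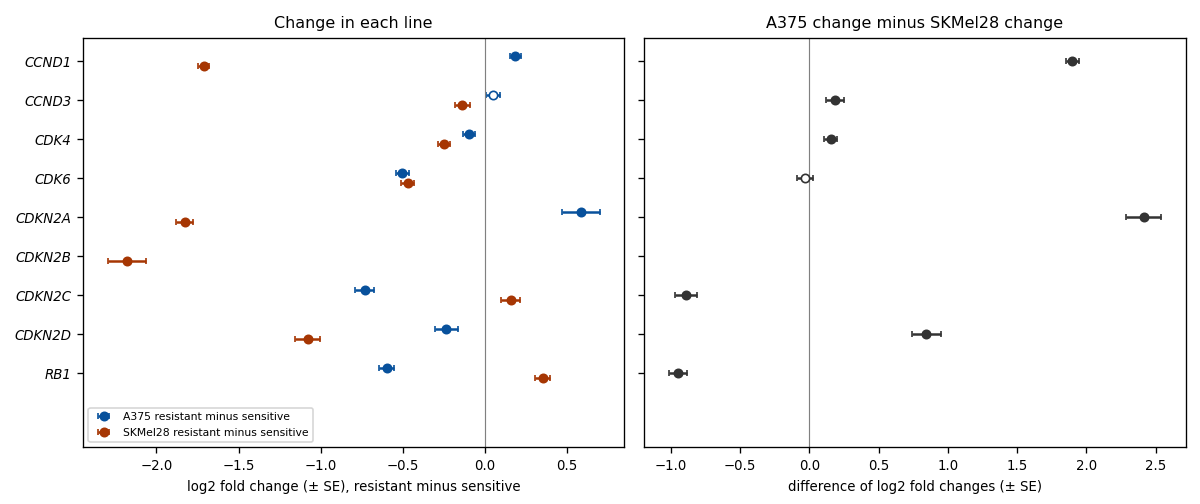
Log2 fold changes of 9 members, resistant minus sensitive (left, blue A375, orange SKMel28), and the A375 change minus the SKMel28 change (right); points are fitted values, bars 1 SE, and open points did not pass the adjusted threshold of 0.05. CDKN2B has no A375 value and CCND2 is left out for its few reads; CCND1, CDKN2A, CDKN2B and CDKN2D lie at -1.08 or lower in SKMel28, and CDK6 lies at -0.50 and -0.47.

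Cyclin D1, encoded by CCND1, links mitogen signalling to the cell cycle. The gene lies at chr11:69641087-69654474 on the plus strand (GRCh38, as are all positions here). Sensitive SKMel28 libraries held 2473, 2528 and 2557 CPM and resistant ones 747, 771 and 788 CPM. The 2 groups stood far apart, with a fold of 0.305 and a log2 change of -1.71 ± 0.0320 (SE; adjusted p = 1.21e-37, edgeR). In A375 the sensitive libraries held 600.3, 605 and 629 CPM and the resistant ones 688, 709 and 691 CPM. Every resistant A375 library was above every sensitive one, a rise of 0.19 ± 0.0314 (SE) on the log2 scale (adjusted p = 2.51e-06, edgeR). The 2 changes differed by 1.90 ± 0.0446 (SE; adjusted p = 1.38e-33, edgeR). Resistant cells of the 2 lines thus came to lie at 696 ± 11.2 and 769 ± 20.9 CPM (SD, n = 3), from 611 ± 15.7 and 2519 ± 42.8 CPM in the sensitive cells.

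CCND2, encoding cyclin D2, lies at chr12:4273772-4305350 on the plus strand and was near the limit of detection. Resistant A375 libraries had 12, 19 and 15 reads, and sensitive ones had 0, 0 and 1. The ratio of CPM was 46.1, with an exact 95% interval from counting of 7.86 to 1858. Resistant SKMel28 libraries had 13, 21 and 20 reads against 0, 7 and 4 in sensitive ones, a ratio of 4.50 (2.33 to 9.55). The intervals take in counting error alone, as PCR copies of a molecule could not be told from one another. Resistant libraries were above the sensitive ones in each line, a description only, since the gene passed the filter through the groups where it is high. At this depth the difference between the 2 changes did not pass (adjusted p = 0.0609, edgeR), and it passed with DESeq2 (0.0435), without the third sensitive A375 library (0.0354) and without the first sensitive SKMel28 library (0.0189). The antisense gene CCND2-AS1, which overlaps it, had 3 reads in resistant A375 and 0 in the other groups.

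CCND3 encodes cyclin D3 and lies at chr6:41934933-42050357 on the minus strand. It stayed within a narrow range. In A375, sensitive libraries held 79.9, 87.0 and 84.3 CPM and resistant ones 87.6, 88.2 and 84.1 CPM. The groups overlapped, and the difference of 0.05 ± 0.0446 (SE) on the log2 scale was not called (adjusted p = 0.368, edgeR). SKMel28 went from 105, 105 and 113 CPM in sensitive to 93.2, 100.6 and 100.2 CPM in resistant libraries, a fall of -0.14 ± 0.0440 (SE; adjusted p = 0.00594, edgeR). That call rested on single libraries, since the adjusted p was 0.0544 without the first resistant and 0.0739 without the third sensitive SKMel28 library.

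**Figure D2:**
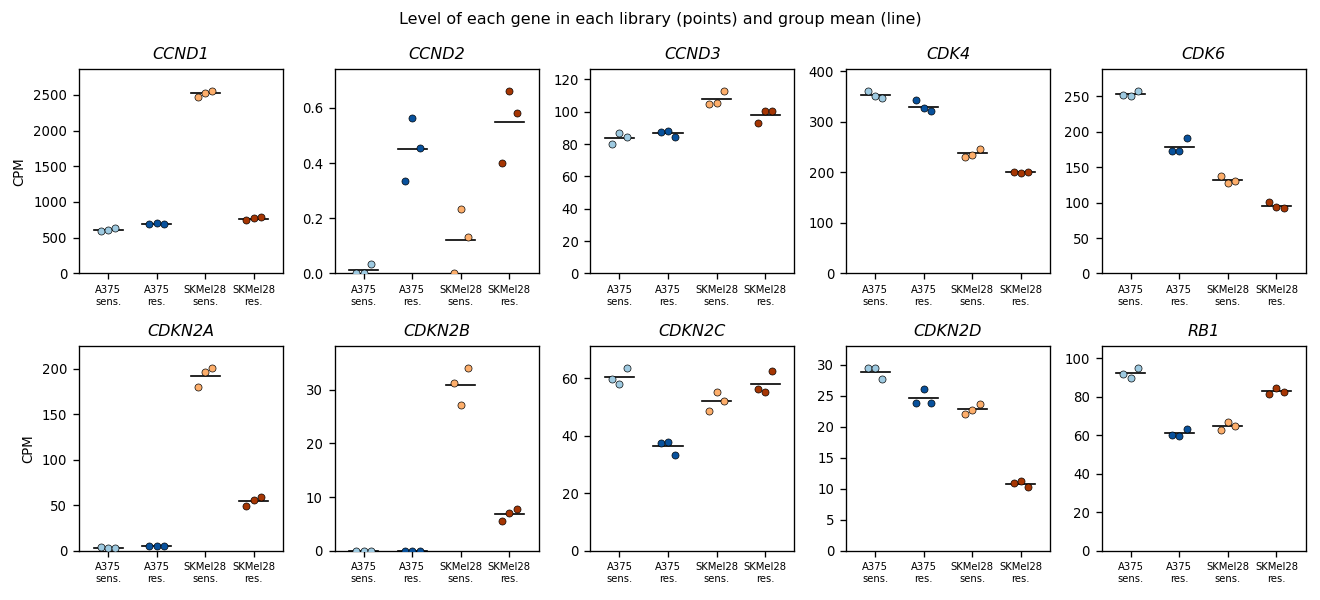
CPM of each of the 10 genes in each of the 12 libraries (points) with the group mean (line), on linear axes from 0 that differ between panels; groups are A375 sensitive and resistant and SKMel28 sensitive and resistant, 3 libraries each. CCND1 stands at 2473 CPM or more in the sensitive SKMel28 libraries and between 600.3 and 788 CPM in the other 9, and CDKN2B is at 0 in all 6 A375 libraries.

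The kinase CDK4, at chr12:57747727-57756013 on the minus strand, encodes a kinase that works only when bound by a D cyclin. In SKMel28 it fell from 231, 235 and 247 CPM to 200.3, 198 and 202 CPM, with no overlap between the groups (-0.25 ± 0.0354 SE on the log2 scale, adjusted p = 4.21e-08, edgeR). In A375 the sensitive libraries held 362, 351 and 347 CPM and the resistant ones 343, 327 and 321 CPM. The groups were separated by a few CPM only, and the fall of -0.10 ± 0.0345 (SE) had an adjusted p of 0.0189 by edgeR with TMM. It was not called with DESeq2 (0.138), with DESeq2's size factors (0.147), with library size alone (0.0893) or without the filter (0.186). Leaving out the second (0.28) or the third resistant (0.424) or the first sensitive (0.0875) A375 library also ended the call. The falls in the 2 lines differed by 0.15 ± 0.0494 (SE; adjusted p = 0.00645, edgeR). TSPAN31 and MARCH9 overlap CDK4 on the other strand, at 12.6 to 18.6 and 8.67 to 28.98 CPM in the group means, and unstranded counting cannot part reads in the overlap.

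CDK6, the second cyclin D kinase, lies at chr7:92604921-92836594 on the minus strand. Sensitive A375 libraries held 251, 250.5 and 258 CPM and resistant ones 173, 172 and 191 CPM. In SKMel28, 138, 128 and 130.05 CPM in sensitive libraries stood against 100.5, 93.3 and 91.8 CPM in resistant ones. CDK6 was lower in all 6 resistant libraries than in any sensitive library of the same line. The log2 change was -0.50 ± 0.0401 (SE; adjusted p = 1.81e-14, edgeR) in A375 and -0.47 ± 0.0424 (SE; adjusted p = 2.64e-13, edgeR) in SKMel28. The difference between these changes was -0.03 ± 0.0583 (SE; adjusted p = 0.650, edgeR), which with that SE does not show that they are alike.

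CDKN2A and CDKN2B lie side by side on the minus strand of chromosome 9, at chr9:21967753-21995301 and chr9:22002903-22009363. CDKN2A makes the INK4 protein p16INK4a from a proximal start and the unrelated p53 activator p14ARF from a distal one, and counts per gene cannot split the 2 transcripts. CDKN2B makes p15INK4b. CDKN2D makes p19INK4d and lies at chr19:10566462-10569059 on the minus strand. These 3 genes fell together in resistant SKMel28, and a stretch upstream of a start of each is printed for that reason. For CDKN2A this is the distal start, which makes p14ARF and not an INK4 protein. The counts do not show which CDKN2A transcript fell. Shown are the bases from RefSeq's promoter table (GRCh38.p14) up to the start or to the first base in an annotated exon of the gene. They are chr9:21995325-21995574 before the distal CDKN2A start, chr9:22009364-22009555 before CDKN2B and chr19:10569060-10569229 before CDKN2D, each on the minus strand, 5′ to 3′. Capitals mark the letters GGGCGG or their complement CCGCCC, the core of a GC-box, the site bound by Sp1-type factors.
CDKN2A distal: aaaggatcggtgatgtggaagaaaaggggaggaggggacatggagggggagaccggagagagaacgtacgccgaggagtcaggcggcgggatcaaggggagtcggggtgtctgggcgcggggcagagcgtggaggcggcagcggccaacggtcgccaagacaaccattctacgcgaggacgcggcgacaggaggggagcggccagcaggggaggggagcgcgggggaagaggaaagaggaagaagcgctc
CDKN2B: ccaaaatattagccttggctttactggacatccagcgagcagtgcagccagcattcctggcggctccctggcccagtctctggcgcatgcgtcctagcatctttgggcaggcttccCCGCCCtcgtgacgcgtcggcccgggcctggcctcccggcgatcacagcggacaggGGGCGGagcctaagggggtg
CDKN2D: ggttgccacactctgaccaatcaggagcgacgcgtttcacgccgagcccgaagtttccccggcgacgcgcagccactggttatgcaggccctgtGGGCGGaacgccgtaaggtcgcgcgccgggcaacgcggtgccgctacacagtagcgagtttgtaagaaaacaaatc
On either strand and in the 250 bases before the start, GGGCGG occurred 2 times at CDKN2B and 2 times at CDKN2D (1 of them in the printed stretch) and did not occur at the distal CDKN2A start. The window before the proximal CDKN2A start, at chr9:21974858-21975107, held the letters 1 time, 37 bases upstream. It is not printed because an annotated exon begins after its first 9 bases. GGGCGG is a common run of letters, held by 42.6% of 35116 RefSeq promoters of that length. The letters of an E-box (CACGTG), AP-1 (TGANTCA), CRE (TGACGTCA), E2F (TTTCCCGC or TTTGGCGC) and ETS (CCGGAAGT) site were in none of these 4 windows, which says only that those letters are not there.

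CDKN2A was high in SKMel28 and low in A375. Sensitive SKMel28 libraries held 181, 196 and 201 CPM, and sensitive A375 libraries 3.75, 3.11 and 3.43 CPM. Resistant SKMel28 libraries fell to 48.8, 55.4 and 58.6 CPM, a fold of 0.282 and a log2 change of -1.83 ± 0.0534 (SE; adjusted p = 6.05e-30, edgeR). Resistant A375 libraries, at 4.92, 5.20 and 5.42 CPM from 175 to 179 reads each, were all above the sensitive ones with 102 to 149 reads. That rise was 0.59 ± 0.114 (SE) on the log2 scale (adjusted p = 3.23e-05, edgeR). The changes went opposite ways and differed by 2.41 ± 0.126 (SE; adjusted p = 1.18e-20, edgeR).

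CDKN2B had 0 reads in all 6 A375 libraries, where 3 reads over a group, taken as the upper limit for a count of 0, would be 0.0293 CPM. In SKMel28 it fell from 31.2, 27.2 and 34.1 CPM to 5.53, 7.09 and 7.72 CPM. The highest resistant library was below the lowest sensitive one, with a fold of 0.220 and a log2 change of -2.18 ± 0.116 (SE; adjusted p = 1.77e-19, edgeR). The antisense gene CDKN2B-AS1 overlaps both loci and was at 1.01 CPM in sensitive and 0.962 CPM in resistant SKMel28 as group means, with 3 reads in resistant and 0 in sensitive A375.

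CDKN2D fell in both lines. Sensitive SKMel28 libraries held 22.0, 22.7 and 23.7 CPM and resistant ones 10.9, 11.2 and 10.3 CPM, a log2 change of -1.08 ± 0.0774 (SE; adjusted p = 2.23e-16, edgeR). In A375 the step was smaller, from 29.5, 29.5 and 27.7 CPM to 23.8, 26.0 and 23.8 CPM (-0.23 ± 0.0688 SE, adjusted p = 0.00382, edgeR), and without the third resistant A375 library it had an adjusted p of 0.0508. The groups did not overlap in either line. The change was 0.84 ± 0.104 (SE) higher in A375 than in SKMel28 (adjusted p = 1.75e-09, edgeR).

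CDKN2C, which makes p18INK4c, lies at chr1:50960745-50974633 on the plus strand and was the INK4 gene that fell most in A375. Sensitive libraries held 59.8, 58.0 and 63.7 CPM and resistant ones 37.7, 38.0 and 33.4 CPM. All resistant A375 libraries were well below all sensitive ones (-0.73 ± 0.0586 SE on the log2 scale, adjusted p = 2.46e-14, edgeR). In SKMel28, libraries held 48.69, 55.38 and 52.12 CPM when sensitive and 56.27, 55.3838 and 62.64 CPM when resistant. The groups there all but touched, since the highest sensitive library was at 55.3771 CPM. The rise of 0.16 ± 0.0577 (SE) had an adjusted p of 0.0136 (edgeR), and of 0.129 without the third resistant and 0.0868 without the first sensitive SKMel28 library. The 2 lines differed in this change by -0.89 ± 0.0822 (SE; adjusted p = 9.03e-13, edgeR).

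RB1, the target of the kinases, lies at chr13:48303726-48599436 on the plus strand and changed in opposite directions in the 2 lines. Sensitive A375 libraries held 92.0, 90.0 and 95.04 CPM against 60.4, 59.5 and 63.2 CPM in resistant ones, a log2 change of -0.60 ± 0.0444 (SE; adjusted p = 1.96e-15, edgeR). Sensitive SKMel28 libraries held 62.9, 67.0 and 64.99 CPM against 81.7, 84.4 and 82.7 CPM in resistant ones, a rise of 0.35 ± 0.0448 (SE; adjusted p = 2.98e-09, edgeR). Neither pair of groups overlapped. Sensitive A375 was thus above sensitive SKMel28, and resistant A375 below resistant SKMel28. The changes differed by -0.95 ± 0.0631 (SE; adjusted p = 2.68e-17, edgeR). LPAR6 and RCBTB2 lie within RB1 on the other strand at 3.66 to 5.96 and 3.80 to 16.5 CPM in the group means.

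Between the lines, A375 had more of the kinases and less of cyclin D1 and of the chromosome 9 inhibitors. Among sensitive cells all 10 members were called, 5 higher and 5 lower in A375, against 82.9% of all genes (42.4% and 40.5% by direction). Groups did not overlap for 9 of them, all but CCND2, against 83.3% of all genes. As above, CCND2 and CDKN2B passed the filter through groups where they are high. All of the other 8 members were called, 5 higher and 3 lower in A375, with no overlap between the groups. CDK4 was 1.49 times and CDK6 1.92 times as high in A375, and CDKN2C, CDKN2D and RB1 were also higher, at log2 differences of 0.22, 0.34 and 0.51. CCND1 was lower in A375 by a log2 difference of -2.04 ± 0.0324 (SE; adjusted p = 3.25e-41, edgeR), CDKN2A by -5.80 ± 0.0762 (SE; adjusted p = 9.30e-44, edgeR) and CCND3 by -0.36. CDKN2B was at least 1054-fold lower in A375. The bound comes from 2789 reads over the SKMel28 group against a limit of 3 reads over the A375 group, each per TMM-adjusted library size. For CCND2 the ratio of A375 to SKMel28 was 0.0802 (0.00186 to 0.552) from 1 against 11 reads. Its call at an adjusted p of 0.0192 (edgeR) was lost without the first (0.0764) or second (0.0606) sensitive A375 library or the second sensitive SKMel28 library (0.152).

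Among resistant cells 9 of 10 members were called between the lines, 3 higher and 6 lower in A375, against 85.3% of all genes (42.6% and 42.7%). Groups did not overlap for those 9, against 86.0% of all genes. Without CCND2 and CDKN2B, all 8 members were called, 3 higher and 5 lower in A375, with no overlap between the groups. The kinases kept their order, with CDK4 1.65 and CDK6 1.88 times as high in A375, and CDKN2D was 2.27 times as high. RB1 and CDKN2C were lower in resistant A375 than in resistant SKMel28, by -0.44 ± 0.0446 and -0.68 ± 0.0588 (SE) on the log2 scale (adjusted p = 3.34e-12 and 4.79e-14, edgeR). CDKN2A was lower by -3.39 ± 0.0754 (SE), and CDKN2B was at least 232-fold lower, from 670 reads against the limit of 3. CCND1 differed by -0.14 ± 0.0314 (SE; adjusted p = 5.92e-05, edgeR) and CCND3 by -0.18 ± 0.0443 (SE; adjusted p = 3.27e-04, edgeR). Both signs depended on the scaling: with library size alone, which moved the median of all genes in this contrast from 0.01 to 0.23, CCND1 was at 0.07 and CCND3 at 0.04. CCND2 was not called (ratio 0.820, 0.541 to 1.24, adjusted p = 0.593, edgeR).

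To compare genes with one another, CPM was divided by the length of the longest coding transcript in kilobases. On this scale CCND1 made up 80.2% ± 0.690 (SD, n = 3) of the D cyclin sum in sensitive A375, 81.7% ± 0.333 in resistant A375, 92.9% ± 0.204 in sensitive SKMel28 and 81.3% ± 0.348 in resistant SKMel28. The D cyclin sum was 177 ± 4.30, 198 ± 3.17, 630 ± 11.6 and 220 ± 6.46 CPM per kb in the same order. CDK4 was the larger part of the kinase sum in every group, from 88.6% to 92.2%. That sum was 192 ± 3.54 in sensitive and 175 ± 5.02 CPM per kb in resistant A375, and 126 ± 3.79 and 105 ± 0.905 in SKMel28. The ratio of D cyclin to kinase RNA therefore went from 0.923 ± 0.0385 to 1.13 ± 0.0401 in A375 and from 5.01 ± 0.0823 to 2.10 ± 0.0683 in SKMel28. These values depend on the length used. With the length of all exons merged, the ratio went from 1.07 to 1.34 in A375 and from 6.30 to 2.48 in SKMel28. CCND1 was then 89.8% to 96.6% of the D cyclin sum over the groups, and CDK4 84.4% to 89.1% of the kinase sum.

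The INK4 sum had a different make-up in each line. In A375 it was mostly CDKN2C (47.5% in sensitive, 37.0% in resistant cells) and CDKN2D (46.4% and 51.0%), with CDKN2A at 6.10% and 11.95%. In SKMel28 CDKN2A was the larger part on this scale, at 78.2% ± 0.373 in sensitive and 59.0% ± 1.53 in resistant cells, with CDKN2C going from 9.34% to 28.0%. The sum fell in both lines, from 43.8 ± 0.611 to 33.8 ± 1.497 CPM per kb in A375 and from 192 ± 9.88 to 71.6 ± 5.00 in SKMel28. Per unit of kinase RNA it went from 0.228 to 0.194 in A375 and from 1.53 to 0.685 in SKMel28. The level set by length depends on which transcript is made: with the length of all exons merged, CDKN2A was 53.6% of the sum in sensitive and 32.2% in resistant SKMel28, where CDKN2C was then the larger part at 45.0%, and the INK4 to kinase ratio was 0.967 and 0.548. The CDKN2A counts also take in any p14ARF transcripts, which do not encode an INK4 protein, so the sums may overstate INK4 RNA. These sums carry no test.

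**Figure D3:**
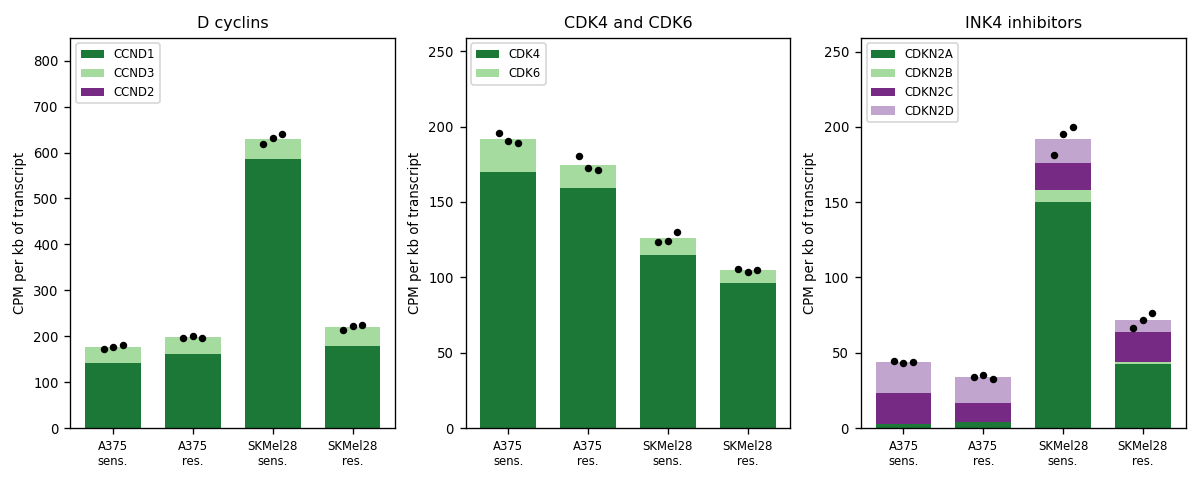
Stacked group means, in CPM per kb of the longest coding transcript, of the D cyclins (left), CDK4 and CDK6 (middle) and the INK4 genes (right) in the 4 groups; black points are the sums in each of 3 libraries, and all axes start at 0. The D cyclin and INK4 sums of sensitive SKMel28 (630 and 192 CPM per kb) stand above those of the other groups, and CDKN2A is a small part of the INK4 sum in A375.

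Within groups the order of members by level per kb depended on the length used. By the longest coding transcript it was as follows. In sensitive A375, CDK4 (170.0 CPM per kb) and CCND1 (142) led, then CCND3 (35.0), and CDK6, CDKN2C, CDKN2D and RB1 followed between 19.3 and 21.8 with overlapping libraries, CDKN2A being last of the detected INK4 genes at 2.67. In resistant A375, CCND1 (162) and CDK4 (159) overlapped. In sensitive SKMel28, CCND1 (585) came before CDKN2A (150.2) and CDK4 (115). In resistant SKMel28 the order was CCND1 (178), CDK4 (96.4) and then CDKN2A (42.3) and CCND3 (40.9), which overlapped.

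By the length of all exons merged, CCND1 came first and CDK4 second in every group with no overlap, at 126.6 and 111.4 CPM per kb in sensitive A375 and 144.1 and 104.3 in resistant A375. In sensitive SKMel28 the order was then CCND1 (522), CDK4 (75.0), CDKN2A (44.5) and CCND3 (18.6), so that CDK4 and CDKN2A changed places. In resistant SKMel28, CCND1 (159) and CDK4 (63.2) were followed by CDKN2C (17.5) and CCND3 (16.9), which overlapped, and then by RB1 (12.9) and CDKN2A (12.5), which overlapped too. CCND3 came after CDK6, CDKN2D and CDKN2C in sensitive A375 at 14.4, and in resistant A375 it was at 14.9, overlapping CDK6 at 14.6.

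Expressed genes around each member, at a mean of 2 CPM or more and within 10 Mb, were then read for their own changes. Around CDKN2C, 94 of 109 such genes fell and 4 rose in resistant A375, with a median log2 change of -0.53, and CDKN2C lay at -0.73, a difference of -0.21 from that median. Around RB1, 51 of 62 fell and 3 rose in A375, with a median of -0.40 against -0.60 for RB1. By contrast, 26.3% of all genes were called lower in A375, and the median over all genes was 0. In SKMel28 the median around RB1 was 0.08, but 8 of the 10 nearest genes (5 on each side by start position) rose. The median of these 10 was 0.49, against 0.35 for RB1. LPAR6 (0.70) and RCBTB2 (1.17) are 2 of the 8, and both lie within RB1 on the other strand. Unstranded counting cannot part reads in such an overlap. Whether DNA copy number has a part in these levels was not tested.

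For the other members the values were mixed. CCND1 at -1.71 in SKMel28 lay among 237 genes with a median of -0.23. CDKN2A at -1.83 and CDKN2B at -2.18 lay among 31 genes with a median of 0.29, of which 17 rose and 4 fell. MTAP, the expressed gene next to CDKN2A and a purine salvage enzyme often lost with it in tumours, was at 0.06 in SKMel28 (adjusted p = 0.185, edgeR) and rose by 0.45 in A375 (adjusted p = 3.31e-15, edgeR), to 349 from 256 CPM. CDKN2D at -1.08 in SKMel28 lay among 361 genes with a median of -0.27, and CDK6 at -0.50 in A375 among 113 genes with a median of 0.03. In SKMel28, CDK6 at -0.47 lay close to its surroundings: the median was -0.27 over the same 113 genes and -0.49 over the 10 nearest, of which 8 fell. So did CDK4 at -0.25, among 182 genes with a median of -0.17, and CCND3 at -0.14, among 145 genes with a median of -0.04. Positions come from GENCODE release 29.

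**Figure D4:**
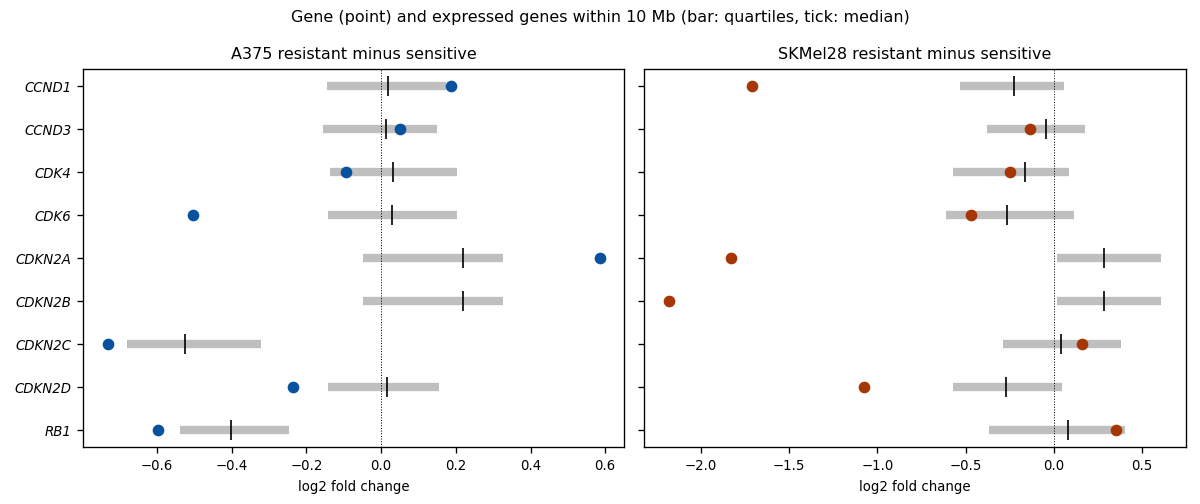
Log2 change (resistant minus sensitive) of 9 members (points) and of the expressed genes within 10 Mb of each (grey bar, lower to upper quartile; tick, median) in A375 (left) and SKMel28 (right); CCND2 is left out and CDKN2B has no A375 point. In A375 the bars of CDKN2C and RB1 lie below zero with medians of -0.53 and -0.40. Points lie left of their bars for CDK6, CDKN2C, CDKN2D and RB1 in A375, and for CCND1, CDKN2A, CDKN2B and CDKN2D in SKMel28. In A375 the points of CCND1 and CDKN2A lie right of their bars.

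Of the genes that act around the members, 5 lists with 65 genes were described by their counts. The first, cyclins E and A, CDK2 and the CIP/KIP inhibitors (11 genes), had 1 rise and 9 falls in A375 with a median log2 change of -0.25, and 7 rises and 4 falls in SKMel28 with a median of 0.17. Over all genes tested the medians were 0 and -0.01, and the shares called higher and lower were 25.0% and 26.3% for A375 and 34.2% and 35.8% for SKMel28, the base for each list here. CDKN1A, encoding the CDK inhibitor p21, rose in A375 from 180 ± 4.81 to 365 ± 1.63 CPM (SD, n = 3) and fell in SKMel28 from 27.2 ± 1.29 to 21.8 ± 1.26 CPM. CDKN1C, encoding the inhibitor p57, moved the other way: A375 went from 11.98 ± 1.09 to 0.711 ± 0.0736 CPM, and SKMel28 rose to 6.70 ± 0.333 from 2.89 ± 0.752 CPM. CKS1B, a CDK-binding subunit, fell in both lines (-0.30 in A375, -0.72 in SKMel28). CCNA2, encoding cyclin A2, rose by 0.60 in SKMel28. Its A375 value of -0.11 (adjusted p = 0.0195, edgeR) was not called in 8 of 18 other settings.

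The pocket proteins, E2F and DP factors that RB1 works with (12 genes) had 2 rises and 6 falls in A375 (median -0.17) and 3 rises and 5 falls in SKMel28 (median -0.04). The count of 2 rises in A375 was 4 with DESeq2, its size factors, library size alone or no filter, 0 without the first and 1 without the second sensitive A375 library, and 1 without the second resistant or the second sensitive SKMel28 library. E2F2, an activating E2F, fell in A375 from 21.2 ± 1.20 to 8.12 ± 0.542 CPM and was at 36.8 ± 2.50 and 36.3 ± 1.01 CPM in SKMel28 (adjusted p = 0.784, edgeR). E2F1 fell in both lines, by -0.75 and -0.23. E2F4, which acts mainly as a repressor with pocket proteins, fell in SKMel28 from 101 ± 6.30 to 51.9 ± 1.69 CPM, and E2F7, an atypical repressor, fell there by -0.78. Their A375 values were 0.07 and -0.11 (adjusted p = 0.137 and 0.0808, edgeR). The E2F4 value was called with DESeq2 (0.0246), its size factors (0.0218), library size alone (0.0247), no filter (0.0348), the A375 libraries alone (0.0424) and without the third resistant A375 library (0.12, adjusted p = 0.0159). The E2F7 value was called with the A375 libraries alone (0.0381).

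E2F target genes of S phase (21 genes) had 1 rise and 14 falls in A375 (median -0.17), where 25.0% and 26.3% of all genes rose and fell. In SKMel28 they had 10 rises and 9 falls (median -0.00), against 34.2% and 35.8% of all genes. PCNA, the sliding clamp of replication, fell to 153 ± 6.93 from 227 ± 7.98 CPM in A375, whereas SKMel28 had 290.1 ± 15.5 CPM when resistant and 190 ± 7.96 CPM when sensitive, a rise. MCM2, part of the replicative helicase, did likewise, with -0.32 in A375 and 1.06 in SKMel28. MYBL2, a transcription factor of the cell cycle, fell in both lines by -0.81 and -0.74. The change of PCNA in A375 minus that in SKMel28 was -1.18 ± 0.0571 (SE; adjusted p = 8.78e-22, edgeR) and that of MCM2 -1.37 ± 0.0544 (SE; adjusted p = 3.80e-25, edgeR).

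Genes of cyclin D turnover and of CDK folding and activation (12 genes) had 4 rises and 3 falls in A375 (median 0.04) and 8 rises and 2 falls in SKMel28 (median 0.27). CRYAB, a small heat shock protein that serves the ligase for cyclin D1 as a partner, rose in SKMel28 from 27 to 17054 reads in the groups, or from 0.299 ± 0.147 to 173 ± 5.61 CPM. It passed the filter on low counts through resistant SKMel28, where it is high, so its rise there is a description only. In A375 it had 6 reads in sensitive and 0 in resistant cells. Its call there (adjusted p = 0.0196, edgeR) was lost without the first resistant (0.0518) or the second sensitive (0.128) A375 library. The 8 rises in SKMel28 and the 3 falls in A375 include CRYAB. GSK3B, the kinase that marks cyclin D1 for export and destruction, rose by 0.44 in SKMel28 and by 0.13 in A375, where the call was lost without the second sensitive library (0.0706). HSP90AA1 and HSP90AB1, chaperones that fold CDK4, rose in SKMel28 by 0.36 and 0.27 and stood at -0.11 and -0.09 in A375. The A375 values were not called without the second or the third resistant library, nor that of HSP90AB1 without the second sensitive A375 library (0.0514), with DESeq2 (0.067), its size factors (0.107), library size alone (0.0504) or no filter (0.115). Without the second sensitive A375 library the 4 rises were 2. The 3 falls were 1 without that library or without the second or the third resistant one.

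Polycomb genes that act on the INK4 locus (9 genes, with the demethylase KDM6B that works against them) had 0 rises and 4 falls in A375 (median -0.16) and 2 rises and 5 falls in SKMel28 (median -0.23). In A375 the count of rises was 1 with DESeq2, with its size factors, with library size alone and without the first or the third resistant library. At an unadjusted p below 0.05 the edgeR count of rises in A375 was also 0. SUZ12, a core subunit of the complex that methylates histone H3, fell in both lines by -0.23 and -0.25. KDM6B fell by -0.23 and -0.47. EZH2, the methyltransferase, fell by -0.36 in A375 and was at 0.07 in SKMel28 (adjusted p = 0.166, edgeR), or 0.12 without the first sensitive SKMel28 library (adjusted p = 0.0394, edgeR). BMI1, a repressor of CDKN2A, rose by 0.82 in SKMel28 from 4.63 ± 0.520 to 8.14 ± 0.290 CPM. The 2 rises in SKMel28 were 1 with library size alone, in a fit of the libraries compared only, and without the first or second resistant or the second sensitive SKMel28 library.

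**Figure D5:**
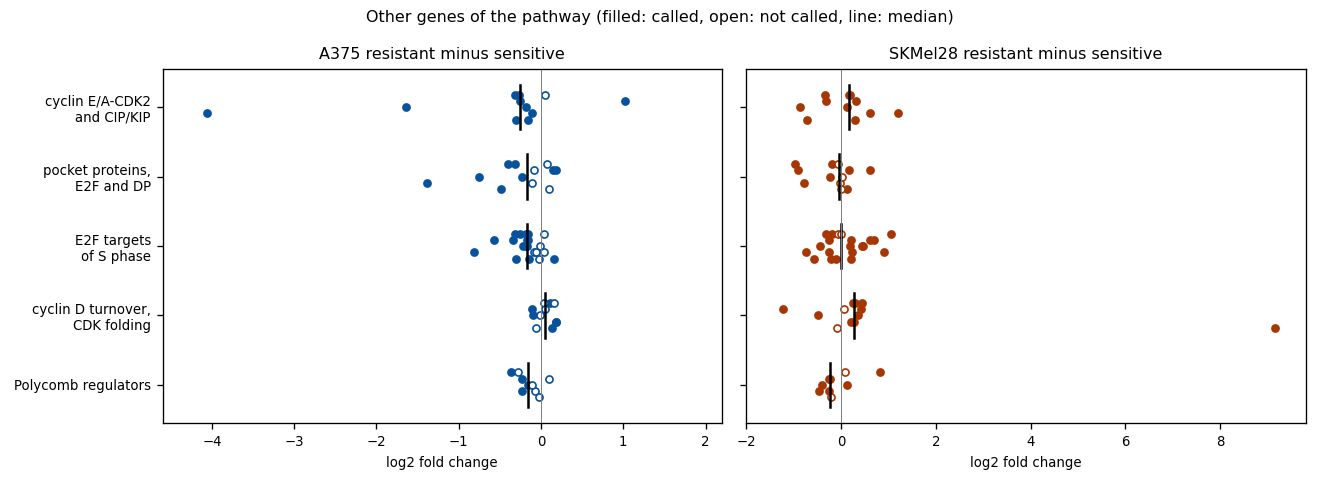
Log2 change (resistant minus sensitive) of each gene of the 5 lists in A375 (left) and SKMel28 (right); filled points were called at an adjusted p below 0.05, open points were not, and the black line is the list's median. CRYAB is not drawn in A375, where resistant libraries had 0 reads; the axes differ, since CRYAB reaches 9.16 in SKMel28, and the medians of the first and the third lists lie at -0.25 and -0.17 in A375.

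The genes whose log2 CPM ran most like each member's over the 12 libraries, among genes with a mean of 10 CPM or more, are given as a description. The libraries fall into 4 groups, so these values mostly follow group means. CCND1 ran closest to TMED4 (Pearson r = 0.997), EMILIN2 (0.996) and TSPO (0.995), whose means were likewise highest in sensitive SKMel28. For CDKN2A the nearest were ARMCX3 (0.999), ST3GAL5 (0.999) and WIPI1 (0.998), each highest in sensitive SKMel28 and lowest in sensitive A375. For CDKN2D they were FHOD1 (0.997), FAM212B (0.995) and the ETS factor gene ETV4 (0.994), which fell in SKMel28 from 117 to 22.0 CPM. Among the genes that ran most like CDK6 were IFFO2 (0.991) and FGFRL1 (0.990). RB1 ran closest to ZCCHC3 (0.982), the histone deacetylase gene HDAC1 (0.979) and LRRC41 (0.978), and CDKN2C to YBX1 (0.975). CDK4 was nearest to GPATCH4 (0.997), CHTOP (0.997) and the profilin gene PFN1 (0.996). CDKN2B was nearest to GORASP2, EIF4G2 and CAPG (each 0.999), CCND3 to LAMTOR4 (0.979) and CCND2 to OPTN (0.938).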

How the data were processed

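The 12 libraries were of poly(A) RNA read as NovaSeq pairs, per the labels' protocols. The deposited files hold whole-number read counts, not normalized, for each gene symbol, and end in 5 summary lines. Per the submitters' processing notes, HISAT2, StringTie and the build GRCh38.p12 were used, whereas the deposited files' names point to STAR and to unstranded counting on hg38. Which aligner made the counts is therefore not settled here. Summary lines were left out of library sizes: reads meeting no gene were 11.7% to 13.5% of counted reads, and 15.1% to 19.5% were unassigned in all.

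Counts were filtered with filterByExpr (15506 genes left), scaled by TMM and fitted as 4 group means with 8 residual degrees of freedom, using edgeR 4.0.16 (robust quasi-likelihood F-test, two-sided) in R 4.3.3. P-values were adjusted over all tested genes by Benjamini-Hochberg, with calls below 0.05. The biological coefficient of variation was 4.197%, and the SE is the absolute log2 fold change over the square root of F. Replicates differed beyond sampling noise (chi-square over degrees of freedom 2.77 to 7.14), so none was a copy of another. The steps were tested on simulated counts. There were 18 alternatives: DESeq2 1.42.0, its size factors, library size alone, no filter, a fit of the compared libraries, a replicate block, and each of 12 libraries left out.

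The 10 genes and the lists of pathway and marker genes were chosen with earlier results of these data known. Named pathway genes are up to 4 called members of each list by smallest adjusted p. Of the genes named by rule, 2 are not reported here. The 10 Mb windows, levels per kb and motif searches were chosen after the data were seen. Gene positions and lengths came from GENCODE release 29 (GRCh38). RefSeq's promoter table (GRCh38.p14) held 14 starts for 8 of the 10 genes.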

Additional observations from a re-analysis of the deposited data

Results flagged for a closer look

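For 7 of the 10 genes the change from sensitive to resistant cells differed between A375 and SKMel28 in the test of the difference itself (edgeR, adjusted p below 0.05). The difference, A375 minus SKMel28 on the log2 scale, was 2.41 for CDKN2A (0.59 in A375 and -1.83 in SKMel28) and 1.90 for CCND1 (0.19 and -1.71). It was 0.84 for CDKN2D, which fell in both lines (-0.23 and -1.08). It was -0.95 for RB1 (-0.60 and 0.35) and -0.89 for CDKN2C (-0.73 and 0.16), which fell in A375 and rose in SKMel28. Smaller differences were 0.19 for CCND3 (0.05 and -0.14) and 0.15 for CDK4 (-0.10 and -0.25). That of CCND3 was not called without the first sensitive A375 library (adjusted p = 0.0617, edgeR) or the third sensitive SKMel28 library (adjusted p = 0.051, edgeR). Of all genes tested, 63.8% were called in this contrast.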

How the results depend on the processing

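Over the 5 comparisons, the 10 genes gave 48 changes and 854 values under the alternatives. Of these, 832 kept their side of the threshold and, where called, their direction. Another 17 kept the direction but were no longer called, 3 became called and 2 called values reversed. A value called in neither fit could change sign among the 832. The difference between the changes of CDK6, -0.03, reached 0.03 under the alternatives. The reversals were CCND1 (0.0699) and CCND3 (0.0356) between resistant cells of the 2 lines, with library size alone. The counts of called members stayed within 1.5 times the reported ones in every setting. For A375 the count ran from 6 to 8 when libraries were left out. Correlations of same-numbered resistant and sensitive libraries were 0.03, -0.0024 and 0.0047 in A375 and 0.047, 0.0077 and 0.026 in SKMel28. Those of differently numbered libraries ran from -0.022 to 0.016 in A375 and from -0.042 to 0.013 in SKMel28. These small values do not settle whether replicate numbers pair the libraries. With a replicate block, genes called numbered 8077 in A375 (7959 without), 10896 in SKMel28 (10854 without) and 9963 for the difference between lines (9891 without). Depth limits CCND2, with 0 to 21 reads per library, and CDKN2B in A375, with 0. The fold of CDKN2B in A375 could not be given under any setting.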

Other observations

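Letters of transcription factor sites were counted in the 250 bases before the starts that RefSeq lists for 8 of the genes, as a description of sequence. Before the CDK4 start the E-box CACGTG, the letters bound by MYC with MAX, occurred 3 times, at 216, 196 and 101 bases upstream. Of 35116 promoters of that length, 6.34% hold the letters and 0.0797% hold them 3 times or more. CDKN2C has the same letters once before each of 2 of its 3 starts, at 220 and 69 bases upstream. The AP-1 letters TGANTCA were found once, 210 bases before the start listed for RB1, and 6.57% of promoters hold them. That window, chr13:48476200-48476449, lies inside the RB1 gene, far downstream of its annotated 5′ end at 48303726. In the CDK4 window an annotated CDK4 exon begins after the first 39 bases, and exon cover beyond that point was not counted. No binding was measured in these samples.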
